A study of Mus musculus with 2 samples.

Results

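Expression of the myosin motor and its partners was examined in the left ventricle of heart-specific *Bmal1* knockout (*H-Bmal1*-/-) mice. The set holds 10 genes, namely the heavy chains *Myh6*, *Myh7* and *Myh7b*, the light chains *Myl1*, *Myl2*, *Myl3*, *Myl4* and *Myl7*, the light chain kinase *Mylk3* and the myosin binding protein *Mybpc3*. Genes entered by name, through the RefSeq accession of a probe. No cutoff on their values was used, but the set was chosen with earlier results of these data known. All 10 were among the 13846 genes measured on the arrays, through 13 probes that were well above background on both arrays and never saturated.

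Total RNA came from the left ventricles of male mice aged 12 weeks, taken at ZT 2 (ZT 0 being lights on). RNA of 6 animals of a genotype was pooled, and each pool was hybridized to 1 single-color Agilent mouse expression array, so 1 control array and 1 knockout array were compared. Knockout animals carried a floxed *Bmal1* gene and a *Cre* transgene driven by the promoter of αMHC, the product of *Myh6*, whereas controls were littermates that carried the floxed gene without *Cre* and are called wildtype in the sample labels. Both groups thus shared the floxed allele, no group carried *Cre* alone, and the promoter that drove *Cre* belongs to a member of the set. There was no replicate array, so no test was made, and "higher" and "lower" compare 1 pool with the other.

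Of the 59305 noncontrol spots, 49.4% (control) and 50.03% (knockout) were well above background, and processed signals had a 75th percentile of 171 and 190.1. A log2 ratio below is the log2 processed signal of a probe relative to that percentile, knockout pool minus control pool. The error given with it, called the software error, combines the errors that the scanner software assigned to the spots and holds no difference between animals. The assigned errors were between 10% and 11.5% of the signal for each member. The software error is thus nearly constant and was not measured between spots. For probes spotted 8 times or more on an array, the SD of the log2 ratio among their spots had a median of 0.076 over 256 probes. *Arntl*, the gene symbol of *Bmal1*, had a signal of 513 in the control and 328 in the knockout pool (log2 ratio -0.80) at 1 probe, and no source used here states where that probe lies relative to the deletion.

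Muscle myosin is a motor with a pair of heavy chains, which split ATP and pull on actin, and with essential and regulatory light chains that stiffen and tune each head. In the mouse ventricle the fetal βMHC (*Myh7*) gives way around birth to the faster αMHC (*Myh6*), and a return of *Myh7* is a widely used marker of a stressed or hypertrophied ventricle. Ventricular muscle uses *Myl3* as essential and *Myl2* as regulatory light chain, whereas *Myl4* and *Myl7* are the atrial forms, which the fetal ventricle also makes. Phosphorylation of *Myl2* by the kinase encoded by *Mylk3* raises the force of contraction, and cardiac myosin binding protein C (*Mybpc3*) holds heads back on the thick filament.

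The heavy chain genes also carry microRNAs in their introns, and the mature sequences are shown because each is made from the transcript of a member and 3 of the heavy chains measured here are the hosts. Sequences and positions are from RefSeq on the build GRCm38.p6, with the seed (bases 2 to 8) in capitals. miR-208a lies within *Myh6* at chr14:54949072-54949093 (minus strand), miR-208b within *Myh7* at chr14:54975710-54975731 (minus strand) and miR-499 within *Myh7b* at chr2:155622893-155622913 (plus strand).
mmu-miR-208a-3p: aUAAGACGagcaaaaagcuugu
mmu-miR-208b-3p: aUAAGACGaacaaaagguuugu
mmu-miR-499-5p: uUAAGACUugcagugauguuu
The forms from *Myh6* and *Myh7* share the seed UAAGACG and are identical at 19 of 22 positions, while the form from *Myh7b* has the seed UAAGACU. No probe on these arrays was matched to the genes of these microRNAs, so only their hosts were measured.

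Promoter windows are shown for the heavy chains *Myh7* and *Myh6* and for the light chains *Myl7* and *Myl1*, since *Myh7*, *Myl7* and *Myl1* were the members at least 1.5-fold different between the pools. Each window runs 5′ to 3′ from 250 bases before an annotated start to 50 bases after it (RefSeq, GRCm38.p6). Capitals mark matches, on either strand, to CATTCC (the MCAT element bound by TEAD factors), TATAAA or the CArG box bound by serum response factor.
*Myh7*, chr14:54994577-54994876, minus strand: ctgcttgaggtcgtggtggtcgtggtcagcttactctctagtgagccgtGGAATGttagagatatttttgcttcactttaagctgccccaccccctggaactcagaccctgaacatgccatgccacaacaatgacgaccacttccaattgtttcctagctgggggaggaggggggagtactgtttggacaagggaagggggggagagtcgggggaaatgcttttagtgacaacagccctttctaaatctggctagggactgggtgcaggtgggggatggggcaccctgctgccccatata
*Myh6*, chr14:54966558-54966857, minus strand: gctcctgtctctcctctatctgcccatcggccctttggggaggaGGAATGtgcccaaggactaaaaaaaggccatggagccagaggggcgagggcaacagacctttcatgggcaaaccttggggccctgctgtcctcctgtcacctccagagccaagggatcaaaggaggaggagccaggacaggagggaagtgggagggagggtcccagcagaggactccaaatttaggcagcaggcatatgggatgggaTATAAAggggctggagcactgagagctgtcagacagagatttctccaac
*Myl7*, chr11:5898733-5899032, minus strand: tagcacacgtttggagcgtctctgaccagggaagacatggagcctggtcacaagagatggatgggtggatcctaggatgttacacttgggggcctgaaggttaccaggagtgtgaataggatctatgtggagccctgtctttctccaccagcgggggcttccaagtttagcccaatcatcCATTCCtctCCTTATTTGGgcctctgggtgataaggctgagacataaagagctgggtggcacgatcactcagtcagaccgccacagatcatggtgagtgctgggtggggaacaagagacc
*Myl1*, chr1:66945007-66945306, minus strand: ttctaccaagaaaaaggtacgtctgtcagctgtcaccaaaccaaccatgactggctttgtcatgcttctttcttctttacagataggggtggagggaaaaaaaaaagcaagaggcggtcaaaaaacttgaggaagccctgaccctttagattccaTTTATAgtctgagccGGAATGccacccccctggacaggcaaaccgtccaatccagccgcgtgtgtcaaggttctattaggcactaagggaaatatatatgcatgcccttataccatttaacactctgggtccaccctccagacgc
The search covered 13 windows, since all 10 genes matched and 3 of them have several annotated starts, and the windows of 1 gene can overlap. The E-box CACGTG, which CLOCK and BMAL1 bind, was present in 1 of the 13, that of *Myh7b* (79 bases before the start), against 7.15% of all 32851 mouse windows. CATTCC was present in 6 of the 13 windows against 14.7% of all windows, including *Myh7* (201 bases before the start), *Myh6* (206), *Myl1* (80), *Myl3*, *Mylk3* and *Myl7* (70). *Myh7* and *Mylk3* each have a further window, at another annotated start, that held no CATTCC. The CArG box was found in the windows of *Myl3* and *Myl7* and in 1.63% of all windows, AGGTCA, part of the site of thyroid hormone receptors, in 2 of the 13 (16.3% of all) and TATAAA in 3 (13.6% of all). These matches describe the letters of the windows and are not binding sites.

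*Myh7* was the member that differed most between the pools. Its probe (RefSeq NM_080728) had a processed signal of 3437 in the control and 49376 in the knockout pool. The difference was 12.9-fold after scaling (log2 ratio 3.69 ± 0.20), far outside the software error. No other named gene among the 13050 well above background on both arrays had a higher ratio, and with genes well above background on 1 array only, at their bounds, *Myh7* ranked 4 of 13846. Of the 25615 probes with a signal well above background on each array, 1 lay above it, at a log2 ratio of 3.78. That probe has no gene name in the sources used here. Its signal was 4322 in the control and 66071 in the knockout pool, and whether it detects *Myh7* was not tested. The named genes nearest to *Myh7* in log2 ratio were *Gdf15*, a stress-induced secreted factor (3.35), *Cilp*, a matrix protein (3.17), *Slc17a7*, a vesicular glutamate transporter (2.99), *Fut7*, a fucosyltransferase (2.97), and *Fhit*, a hydrolase of dinucleoside polyphosphates (2.94).

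**Figure D1:**
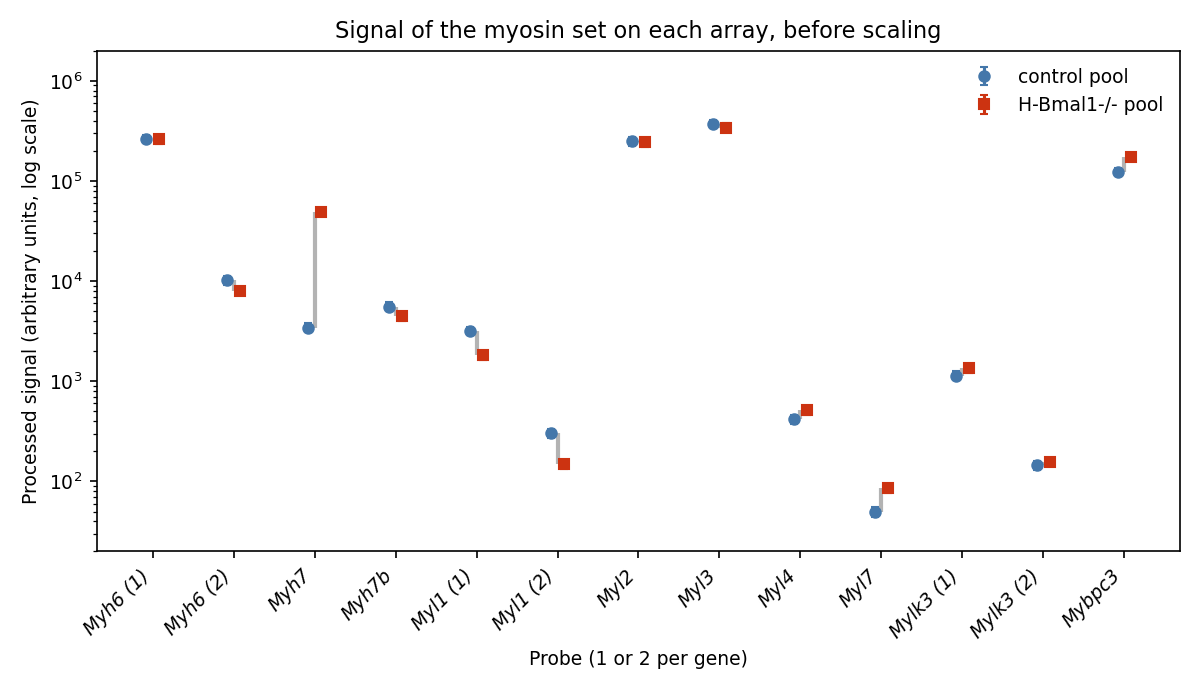
Processed signal (vertical axis, log scale, before scaling) of each of the 13 probes of the myosin set in the control pool (blue circles) and the *H-Bmal1*-/- pool (red squares), with bars for the error assigned by the scanner software, mostly smaller than the symbols. *Myh7* moved from 3437 to 49376, whereas *Myl2*, *Myl3* and the brighter *Myh6* probe lay near the top of the scale in both pools.

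*Myh6*, the adult αMHC gene, was lower in the knockout pool by an amount that depended on the probe. The brighter probe had a signal of 263676 in the control and 263044 in the knockout pool, a log2 ratio of -0.15 ± 0.20 that is smaller than its software error. The dimmer probe, assigned to the same RefSeq transcript, had 10189.9 and 8035 (log2 ratio -0.49 ± 0.20, 1.41-fold lower). Averaged over the probes *Myh6* was 1.25-fold lower (log2 ratio -0.32). Among the 115 probes of the array with the highest signals, more than 9 log2 units above the 75th percentile, the median log2 ratio was -0.15 and the 5th to 95th percentiles were -0.30 and 0.18, so the ratio of the brighter probe was close to the median of such bright probes. Probe sequences were not used here, and the part of the signal that comes from related heavy chains was not tested.

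*Myh7b*, a slow-type heavy chain, followed *Myh6* and not *Myh7* in direction. Its signal was 5570 in the control and 4438 in the knockout pool. It was thus 1.39-fold lower (log2 ratio -0.48 ± 0.20), a difference larger than the software error and short of 1.5-fold. Of the measured genes, 83.4% had a smaller absolute log2 ratio than *Myh7b*.

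The balance of the heavy chains was followed as a quotient of signals within each array, in which any factor common to the array cancels. A quotient of signals from different probes is not a ratio of transcripts, and only its change between arrays is read. *Myh7* stood at 1.30% of the brighter *Myh6* probe in the control pool and at 18.8% in the knockout pool, a 14.4-fold change. Against the dimmer *Myh6* probe the quotient went from 33.7% to 615%, an 18.2-fold change, and against *Myh7b* from 61.7% to 1113%, an 18.03-fold change. On the log2 scale the ratio of *Myh7* exceeded that of *Myh6* by 4.02, or by 3.85 when only the brighter *Myh6* probe was used.

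**Figure D2:**
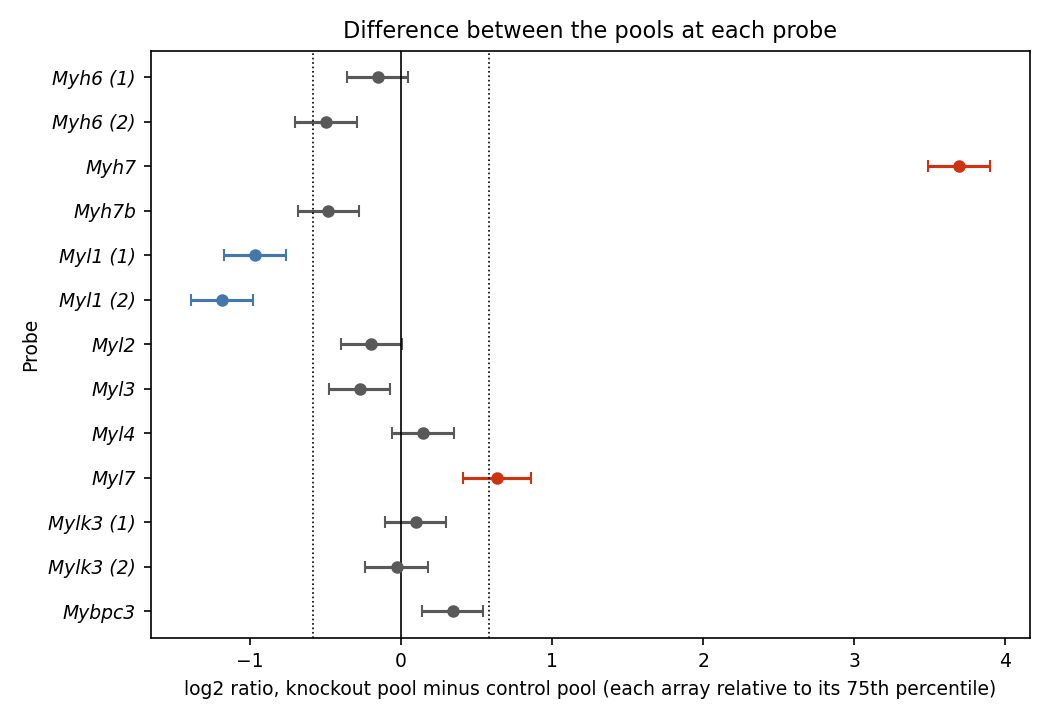
log2 ratio (horizontal axis, knockout pool minus control pool, each array relative to its 75th percentile) of each probe of the set, with bars for the error assigned by the scanner software and dotted lines at 1.5-fold. *Myh7* lies at 3.69 and *Myl7* at 0.63 (red), the probes of *Myl1* lie at -0.96 and -1.19 (blue), and the other probes lie between the dotted lines.

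The ventricular light chains *Myl3* and *Myl2* were among the brightest probes in both pools and differed little. *Myl3*, the essential light chain, had a signal of 372227 in the control and 341918 in the knockout pool (log2 ratio -0.27 ± 0.20). Its spot was the brightest noncontrol spot on both arrays, and no noncontrol spot was saturated. *Myl2*, the regulatory light chain that *Mylk3* phosphorylates, had 250892 and 243486 (log2 ratio -0.19 ± 0.20). Both ratios lay inside the 5th to 95th percentiles of the brightest probes given above.

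The atrial light chains *Myl4* and *Myl7* were higher in the knockout pool, with low signals in both pools. *Myl7*, the atrial regulatory light chain, had a signal of 49.95 in the control and 86.1 in the knockout pool, a 1.55-fold difference (log2 ratio 0.63 ± 0.22). This gene passed 1.5-fold by a small margin, and its log2 ratio was 0.33 after a normexp background correction. *Myl4*, the atrial essential light chain, had 418 and 514 (log2 ratio 0.15 ± 0.20), a difference within the software error. For probes under a signal of 200, in the range of *Myl7*, the SD of the log2 ratio between spots of 1 probe had a median of 0.15 and a 95th percentile of 0.45 (92 probes), against a median of 0.059 at 200 or more (164 probes).

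As quotients within an array, *Myl7* went from 0.0199% of *Myl2* in the control pool to 0.0354% in the knockout pool (1.78-fold), and *Myl4* from 0.112% to 0.1504% of *Myl3* (1.34-fold). Both quotients were therefore higher in the knockout pool, by far less than the quotient of *Myh7* over *Myh6*. A trend of the ratio with signal does not cancel in them, and the brightest probes had a median log2 ratio of -0.15. Under quantile normalization the log2 ratio was 0.16 for *Myl4* and 0.0 for *Myl3*. The mean log2 ratio of the atrial forms exceeded that of the ventricular forms by 0.63. Other genes of atrial muscle went in both directions. Of 8 measured atrial markers outside the set, 3 were higher and 5 lower (median log2 ratio -0.07), and *Bmp10*, the gene of an atrial growth factor, was not well above background in either pool.

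Among those atrial markers, *Nppa*, the gene of atrial natriuretic peptide, was 7.31-fold higher in the knockout pool. The paper also found its transcript raised in knockout hearts of this age and treats it as a marker of heart failure. It is thus not read here as a sign of atrial tissue. *Dkk3*, a secreted Wnt modulator, had a log2 ratio of 1.30, and *Sln*, the atrial regulator of the calcium pump, was at least 2.75-fold higher, since it was not well above background in the control pool. *Kcnj3*, a subunit of the acetylcholine-gated potassium channel, had a log2 ratio of -0.97. After normexp the log2 ratios were 0.43 for *Sln* and -0.57 for *Kcnj3*, both below 1.5-fold, and 0.80 for *Dkk3*. The summed signal of the list, in units of the 75th percentile, went from 113 to 802, most of it from *Nppa*. The part of atrial tissue in the ratios of *Myl4* and *Myl7* was not tested. In bulk RNA a change in the number of cells of a type and a change in the RNA per cell cannot be told apart.

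*Myl1*, the essential light chain of fast skeletal muscle, was the member with the lowest ratio. The first probe, for NM_021285, had a signal of 3189.7 in the control and 1816 in the knockout pool (log2 ratio -0.96 ± 0.20, 1.95-fold lower). The second probe, for the other transcript NM_001113387, had 303 and 148 (log2 ratio -1.19 ± 0.21, 2.27-fold lower). Probes for both RefSeq transcripts thus went the same way, each by more than its error, and the gene was 2.11-fold lower. Of the measured genes, 96.3% had a smaller absolute log2 ratio. Relative to *Myl3* on the same array, the probes of *Myl1* went from 0.857% to 0.531% and from 0.0815% to 0.0433%.

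Skeletal muscle markers were read beside *Myl1*. Of 10 such genes outside the set, 5 were measured, and the defining fast genes *Myh1*, *Myh2*, *Myh4*, *Mylpf* and *Actn3* were not well above background in either pool. Of the 5, 4 were lower and 1 higher. The median log2 ratio over the 5 was -0.38. Their summed signal was 27.1 times the 75th percentile in the control and 17.5 times in the knockout pool. Most of that sum came from *Atp2a1*, the fast skeletal calcium pump, with a signal of 4086 in the control and 2856 in the knockout pool (log2 ratio -0.67). The part of its signal that comes from related calcium pump genes was not tested. *Tnnc2*, the fast skeletal troponin C, had a log2 ratio of -1.69. After normexp *Tnnc2* was at -0.67. *Tnnt3*, the fast skeletal troponin T, was not well above background in the control pool, where its signal was 7.57. Averaged over its probes it was at least 3.19-fold higher. Without that bound its probes had log2 ratios of 1.44 and 3.004.

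**Figure D3:**
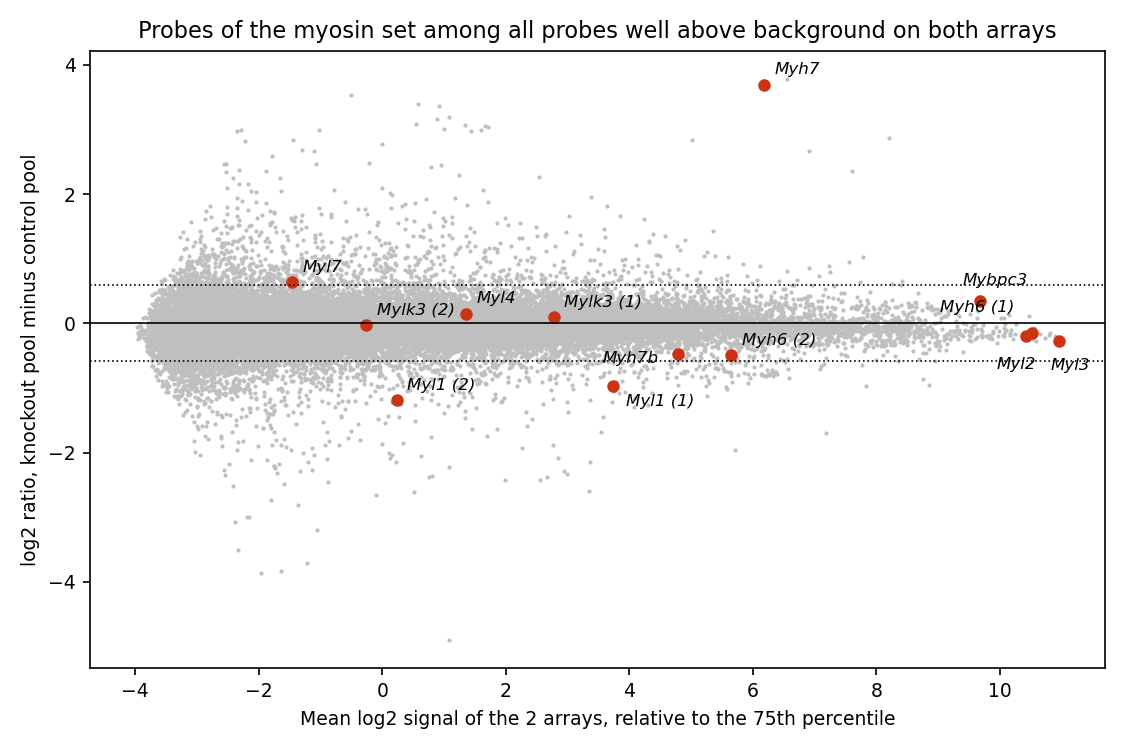
log2 ratio (vertical axis, knockout pool minus control pool) against the mean log2 signal of both arrays relative to the 75th percentile (horizontal axis) for all 25615 probes whose signal was well above background on each array (gray), with the 13 probes of the set in red and dotted lines at 1.5-fold. *Myh7* stands at the top of the cloud with a single gray probe above it, and *Myl2*, *Myl3* and the brighter *Myh6* probe sit at its right end, slightly below 0.

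*Mylk3*, the cardiac myosin light chain kinase, was nearly alike in both pools. Its first probe had a signal of 1138 in the control and 1352 in the knockout pool (log2 ratio 0.10 ± 0.20), and its second 144 and 157 (-0.03 ± 0.21). Averaged over both, the log2 ratio was 0.03, and 9.92% of the measured genes had a smaller absolute ratio. *Mybpc3*, cardiac myosin binding protein C, was 1.27-fold higher (log2 ratio 0.34 ± 0.20), with 123824 in the control and 174252 in the knockout pool. This ratio lay above the 95th percentile (0.18) of the probes of like brightness. Relative to *Myh6* on the same array it was 1.41-fold higher with the brighter *Myh6* probe and 1.78-fold higher with the dimmer one.

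Counted together, 2 of the 10 members (*Myh7* and *Myl7*) were at least 1.5-fold higher, where 6.15% of all measured genes were, and 1 (*Myl1*) was at least 1.5-fold lower, where 5.85% were. At 2-fold, *Myh7* remained on the higher side, where 2.41% of all genes were, and *Myl1* on the lower side, where 2.06% were. The other 7 members were within 1.5-fold. By sign 5 members were higher (*Myh7*, *Myl4*, *Myl7*, *Mylk3* and *Mybpc3*) and 5 lower (*Myh6*, *Myh7b*, *Myl1*, *Myl2* and *Myl3*). The median log2 ratio was -0.08, against -0.013 over all genes. Leaving out the scaling added 0.15 to each log2 ratio, which turned no member from lower to higher but brought small negative medians above 0, and 1337 genes of the array were at least 1.5-fold higher and 530 lower in place of 852 and 810. Set against the median absolute log2 ratio of all genes (0.19) and its 95th percentile (0.95), *Myh7* and *Myl1* lay beyond the latter.

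Genes that work with myosin were described by 7 lists. In all, 66 of 81 genes were measured, 41 of them lower (62.1%, against 51.7% of all genes), and 8 were at least 1.5-fold different (12.1%, against 12.0% of all genes), 4 in each direction. Past the fold threshold the lists together were thus like the array as a whole.

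Of 10 other sarcomeric myosin genes, 8 were not well above background in either pool, among them the embryonic heavy chain *Myh3* and the regulatory light chain *Myl10*. *Myh8*, the perinatal heavy chain of skeletal muscle, had a log2 ratio of -0.52, from probes at -0.55 and -0.50. Its signal, averaged over the probes, was 9182 in the control and 7091 in the knockout pool. The part of that signal that comes from related heavy chains was not tested. *Myl6b*, a slow-type essential light chain, had a log2 ratio of 0.02. All 8 genes of nonmuscle and smooth muscle myosin II were measured, 3 higher and 5 lower with a median of -0.05 (0.099 without scaling). *Myl12a*, a nonmuscle regulatory light chain, was 1.52-fold higher, with a signal of 42509 against 71899, and *Myh11*, the smooth muscle heavy chain, was the lowest at -0.27. *Myh10*, a nonmuscle heavy chain abundant in the embryonic heart, had a log2 ratio of 0.41.

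Enzymes that add phosphate to or remove it from the light chains had a list of their own. Of 13 measured kinase, phosphatase and calmodulin genes, 9 were higher and 4 lower with a median of 0.08. None reached 1.5-fold, where 12.0% of all genes did, and a list of this size is too short to tell these shares apart. The range ran from *Mylk*, the smooth muscle light chain kinase (-0.31), to *Dapk3*, a kinase that acts on light chains and their phosphatase (0.35). *Mylk4* had no matched probe.

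Of 8 measured myosin binding and M-band genes, 3 were higher and 5 lower with a median of -0.13 (0.02 without scaling). *Mybpc2*, the fast skeletal myosin binding protein C, had a signal of 418 in the control and 1099.8 in the knockout pool, and was 2.37-fold higher. *Myom3*, a myomesin of the M-band, was 1.54-fold higher, with 201 against 344, and had a log2 ratio of 0.53 after normexp, below 1.5-fold. *Mybph* and *Mybphl* were not well above background. Of 8 genes for myosin folding and turnover, 2 were higher and 6 lower with a median of -0.06 (0.09 without scaling). *Hsp90aa1*, the inducible cytosolic chaperone that folds myosin with UNC45B, was 2.14-fold higher, whereas *Unc45b* itself had a log2 ratio of -0.007 and *Trim55*, a muscle ubiquitin ligase, was the lowest at -0.47.

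**Figure D4:**
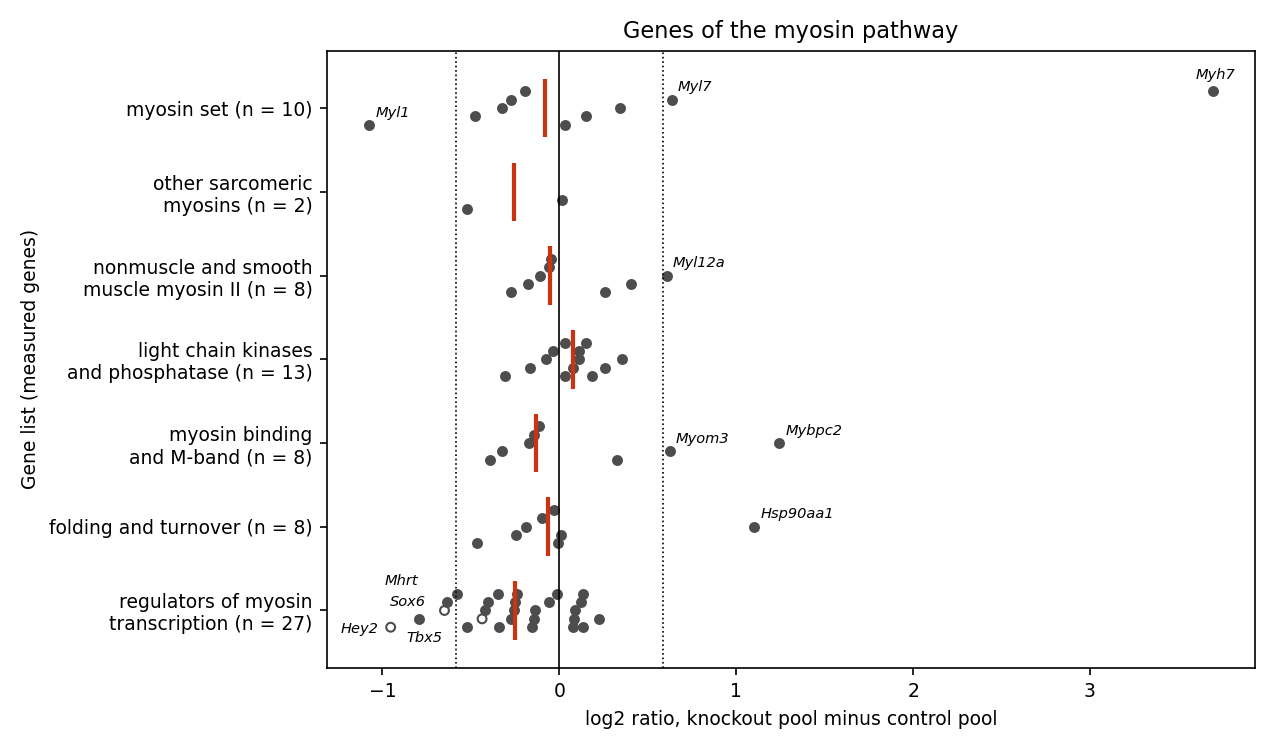
log2 ratio (horizontal axis, knockout pool minus control pool) of each measured gene of the myosin set and of the lists around it, with red bars for list medians, dotted lines at 1.5-fold and open circles for genes well above background on 1 array only. Most points lie between the dotted lines, *Mybpc2* (1.24) and *Hsp90aa1* are the furthest to the right outside the set, and the regulators have their median at -0.25.

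Genes that regulate cardiac myosin transcription were mostly lower. Of 27 measured genes of 28, 20 were lower (74.1%, against 51.7% of all genes) and 7 higher, and the median log2 ratio was -0.25 (-0.097 without scaling). In this list 4 were at least 1.5-fold lower (14.8%, against 5.85% of all genes) and none 1.5-fold higher. After normexp none of the 4 reached 1.5-fold. Among them, *Hey2* and *Sox6* passed the background filter through the control array only. With only probes well above background on both arrays, the list median was -0.20. The list was written with earlier results of these data known, so these shares are descriptive only. *Tbx5*, a T-box factor of the heart, had a signal of 711 in the control and 456 in the knockout pool (1.73-fold lower). *Hey2*, a ventricular repressor of atrial genes, was at least 1.94-fold lower and *Sox6*, a repressor of slow and fetal muscle genes, at least 1.57-fold lower. Both were dim, with signals of 19.3 and 15.9 in the control pool, and neither was well above background on the knockout array. After normexp the log2 ratios were -0.40 for *Hey2*, -0.20 for *Sox6* and -0.53 for *Tbx5*.

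The fourth such gene was *Mhrt*, the long noncoding RNA of the *Myh6* and *Myh7* locus, which was named after its value was seen. It had a signal of 5415 in the control and 3871 in the knockout pool (1.55-fold lower, log2 ratio -0.64, -0.48 without scaling and -0.56 after normexp). In the annotation its span overlaps that of *Myh7*, to which it is known to run antisense, and no source used here states which strand the labeling keeps. Receptors of thyroid hormone, which drives *Myh6* and restrains *Myh7*, and their partners were also read after their values were seen. *Thra* had a log2 ratio of -0.14 (probes at -0.38 and 0.11), *Thrb* -0.35 and *Rxrg* -0.58. *Rxra*, the other partner in the list, was higher at 0.22 (probes at -0.01 and 0.46). It was dim, with signals of 24.5 in the control and 31.7 in the knockout pool, and stood at -0.01 after normexp.

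Markers of the cell types of the ventricle give the setting of these values. Of 10 cardiomyocyte markers, 8 were lower and 2 higher (median log2 ratio -0.27). The lowest were *Tcap*, a Z-disc cap of titin (-0.86), and *Atp2a2*, the cardiac calcium pump (-0.67). The 2 higher were *Casq2* (0.53) and *Myoz2* (0.09). The summed signal of the list went from 4882 to 4154 times the 75th percentile. The ratios of *Myl3*, *Myl2* and *Myh6* (-0.27, -0.19 and -0.32) lay near the median of the list, whose members ranged from -0.86 to 0.53. All 8 fibroblast markers were higher with a median of 0.67 and a summed signal of 296 against 444, led by *Postn* (1.87), *Col1a1* (0.90) and *Lum* (0.84). The part of these cells in the ratios of *Myl12a* and *Myh10*, which other cells than cardiomyocytes express, was not tested.

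Of 8 smooth muscle and pericyte markers, 3 were higher and 5 lower with a median of -0.16. In this list *Des*, the muscle intermediate filament gene, was 1.55-fold higher. As a gene of muscle in general, *Des* does not mark smooth muscle or pericytes alone. Endothelial markers had a median of -0.06 with 5 of 8 lower, macrophage markers 0.05 with 3 of 4 higher, and erythroid markers 0.18 with all 4 higher. No endothelial, macrophage or erythroid marker reached 1.5-fold, where 12.0% of all genes did.

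**Figure D5:**
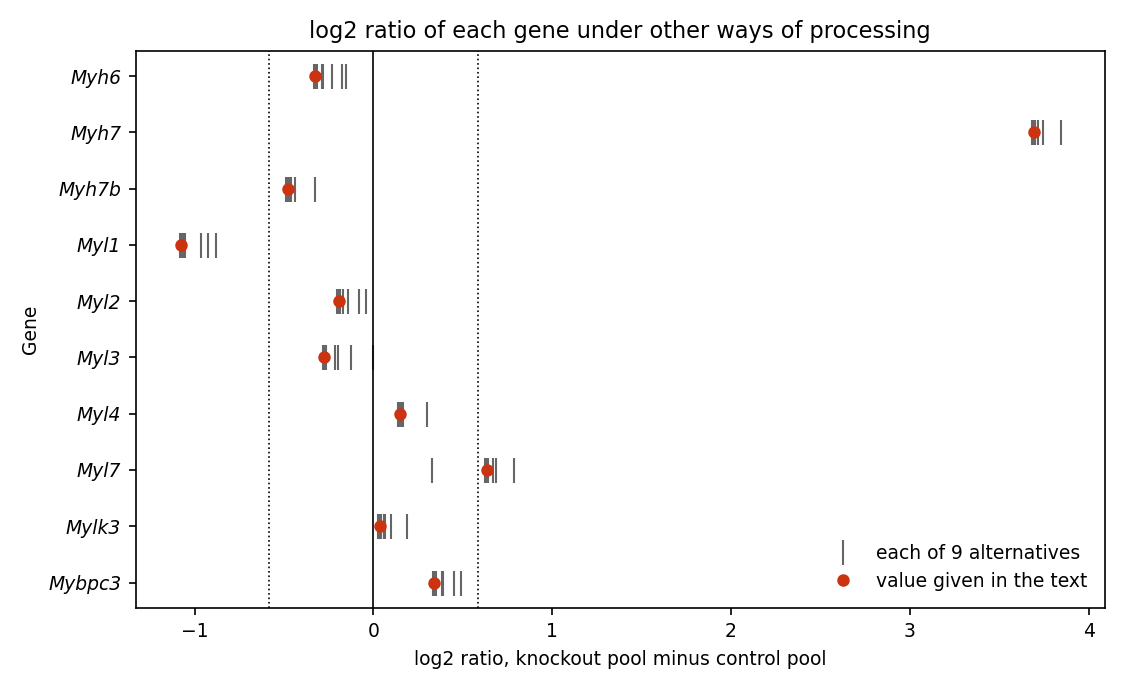
log2 ratio (horizontal axis, knockout pool minus control pool) of each member under 9 other ways of processing (gray ticks) beside the value in the text (red points), with dotted lines at 1.5-fold. *Myh7* stays between 3.69 and 3.84 and *Myl1* between -1.08 and -0.88, whereas *Myl7* reaches down to 0.33.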

How the data were processed

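The authors pooled total RNA of 6 left ventricles per genotype, labeled it with Cy3 and hybridized 1 Agilent SurePrint G3 Mouse array per pool, both on 1 slide and in 1 scan. The deposited intensities are processed signals that Agilent Feature Extraction made by subtracting background, linear and with no scaling from array to array. The submitters' processing notes name version 10.5.1.1 of that software, whereas the scanner output names 10.10.1.1. A value table that the authors deposited as well held these intensities multiplied by a factor for each array (log2 2.45, control, and log2 2.31, knockout), had medians of 67.2 and 64 and no centering by gene, and was used as an alternative.

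The log2 signal was set relative to the 75th percentile over noncontrol spots. Control spots and 269 spots with an outlier flag were left out. Spots of 1 probe were averaged, and a gene was the mean of its probes well above background (most of their spots) on at least 1 array. For a gene that passed background on only 1 of the arrays, the dim side was set at the higher of its own value and the lowest signal well above background, and the fold is then given as "at least". Symbols came from RefSeq accessions in a gene table of GRCm38.p6, used for names and order only. The design of 1 array per genotype gives no replicate error, so no p-value is given, and the number of arrays limits the precision. Genes were counted at 1.5-fold, and the share of all measured genes past it is given beside each first count.

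The members and the lists were chosen with earlier results of these data known. Named were every probe of the members, the members of each list at least 1.5-fold different (at most 3 per direction) or otherwise its highest and lowest gene, and the 5 genes nearest to *Myh7* in log2 ratio. Genes named outside this rule (*Mhrt*, *Thra*, *Thrb*, *Rxrg*, *Rxra*, *Myh10*, *Unc45b*, *Bmp10* and others at or below background) were chosen after their values were seen. Some genes that the rule names are left out of the text. Alternatives were cyclic loess, quantile normalization, the median of probes that passed background on each array as the scale, no scaling, normexp with an offset of 50, either of 2 other filters for dim probes, use of each gene's brightest probe, the value table and a 2-fold threshold. Normexp was run on the median signal because the scanner output used here holds no mean signal. The steps were tested on simulated data. Normalizations were run in R 4.3.3 (limma 3.58.1) and all else in Python 3.11.15 (numpy 2.4.6, pandas 2.3.3, matplotlib 3.10.9).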

Additional observations from a re-analysis of the deposited data

How the results depend on the processing

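Each member kept its direction under the 9 alternatives, except *Myl3*, which was at 0.0 under quantile normalization because its spot was the brightest on both arrays. *Myl1* was at least 1.5-fold lower under all of them, between -1.08 and -0.88 on the log2 scale. *Myh7* stood at 3.69 in the text and at 3.84 without scaling. Its excess over *Myh6* was 4.02 in the text and 3.85 with the brightest probe of each gene. The excess of the atrial over the ventricular light chains was 0.63 in the text, 0.45 under quantile normalization and 0.43 after normexp. Members at least 1.5-fold higher numbered 2 in the text and 1 after normexp, where *Myl7* was at 0.33, and 1 member was at least 2-fold higher. Of the genes in the lists around myosin, 8 were at least 1.5-fold different in the text and 3 after normexp, and 2 were at least 2-fold different.

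Without scaling every log2 ratio was 0.15 higher and the median of all genes became 0.14, with 1337 genes at least 1.5-fold higher and 530 lower in place of 852 and 810. After normexp these counts were 369 and 248. With no filter on dim probes they were 1469 and 1617 of 20282 genes. The medians of the nonmuscle myosin, M-band and folding lists turned above 0 without scaling, at 0.099, 0.02 and 0.09. Over single genes and list medians under each alternative, 281 values moved by less than the median SD between spots of 1 probe (0.076) and 75 by more, most often without scaling or after normexp. Background subtraction limits what can be said of dim probes such as that of *Myl7*. No paired analysis was possible because each genotype has 1 array.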
